A study of Mus musculus with 6 samples.

Results

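The genes described here are the 7 genes of coenzyme A synthesis (Pank1, Pank2, Pank3, Pank4, Ppcs, Ppcdc and Coasy) and the 2 pantetheinase genes Vnn1 and Vnn3. They were chosen by symbol, and all 9 were found among the 12366 genes listed in the deposited table. Acss2-KO mice lack Acss2 (genotype Acss2-/-), which encodes the nuclear and cytosolic enzyme that joins acetate to coenzyme A, and WT mice carry the gene. All animals were C57BL/6 males on chow, 22 weeks old and fasted for 48 h before the liver was taken, with 3 libraries of liver RNA per genotype. Which animal gave which library is not stated, so the p-values below reflect variation among the 6 libraries, some of which may be technical. No tissue restriction of the deletion is given in the labels, so effects on the liver and on the rest of the animal cannot be told apart.

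Coenzyme A carries acyl groups through fatty acid oxidation, ketone body synthesis and the citric acid cycle, and the liver is known to raise its coenzyme A content on fasting. Cells make it from the vitamin pantothenate. Pantothenate kinases add the first phosphate, which is the regulated step. Ppcs then adds cysteine, Ppcdc removes a carboxyl group to leave phosphopantetheine, and Coasy adds the adenylyl group and the last phosphate. Pantetheinases act on the way back: they split pantetheine, a breakdown product of coenzyme A, into pantothenate and cysteamine.

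Pank1, Pank2 and Pank3 are also host genes of miRNAs. By RefSeq coordinates (GRCm38.p6), Mir107 lies within Pank1 (chr19:34820687-34820773, minus strand), Mir103-2 within Pank2 (chr2:131288052-131288137, plus strand) and Mir103-1 within Pank3 (chr11:35782396-35782481, plus strand). Both genes of miR-103 give the same mature 3p strand. The mature sequences are shown because they are a feature the 3 kinase genes share, with the seed (bases 2 to 8) in capitals and written 5′ to 3′.
miR-103-3p: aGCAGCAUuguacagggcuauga
miR-107-3p: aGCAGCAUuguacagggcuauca
The seeds are identical, and the 2 sequences of 23 bases differ only by G22C (miR-103-3p base first, positions counted from the 5′ end). Values below are of the host transcripts, and mature miRNAs were not analysed here.

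How alike the related genes are bears on which gene a read can be assigned to. The coding sequences of Pank1, Pank2 and Pank3 were 72.1% to 73.8% identical in aligned bases, and Pank4 shared 62.2% to 64.5% with them. Vnn1 and Vnn3 were 68.8% identical and shared no run over 12 bases. Windows of 50 bases were taken along the longest annotated transcript of each of the 9 genes. Only those of Pank2 recurred in an annotated protein-coding transcript of another gene. That gene was Rnf24, a ubiquitin ligase gene on the opposite strand whose end overlaps the end of Pank2 by 1125 bases in the deposited coordinates, and 1076 of 4217 Pank2 windows (25.5%) fell in the overlap. No source used here says whether the authors counted by strand. How far the Pank2 value is affected is therefore not known, and the share of windows does not bound it.

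Levels are given as read counts scaled to the library's total (CPM). Estimated depth was 21.8 to 28.6 M reads in the Acss2-KO libraries and 23.3 to 30.8 M reads in the WT libraries, which puts between 211 and 9276 reads behind each member's value in each library. None of the 9 genes was at 0 in a library, and all 9 passed the filter of a mean of 5 CPM. The deleted gene, Acss2, had 1.37, 3.56 and 2.35 CPM in Acss2-KO, against 74.0, 81.0 and 73.5 CPM in WT, as labelled in all 6 libraries. The tissue label was checked on 5 hepatocyte markers, whose summed level was 102051 to 110024 CPM in Acss2-KO and 78957 to 101430 CPM in WT (Cps1 was higher and Ttr lower in Acss2-KO); in these sums a gene listed at 0 counts as 1 CPM. Markers of other cells moved with genotype, where 23.1% of all tested genes were called lower. All 5 erythroid markers were lower (summed level 41.2 to 67.0 CPM in Acss2-KO and 162 to 280 CPM in WT). Among them, Hba-a2 (mean 4.83 CPM in Acss2-KO and 15.0 CPM in WT) and Hbb-bt (3.39 and 18.4 CPM) passed the filter only through WT. Of 6 tested Kupffer cell markers 3 were lower and none higher (all 7 listed markers 57.7 to 126 CPM in Acss2-KO and 160 to 480 CPM in WT). Those 3 calls were lost without replicate 2 of WT (limma adjusted p 0.101 for Clec4f, 0.0877 for Cd5l and 0.0516 for Adgre1) and without replicate 3 of Acss2-KO (0.0777, 0.0788 and 0.104 in the same order), and those of Clec4f and Adgre1 also by median of ratios, trimmed mean and quantile scaling (0.0515 to 0.0747). Of 5 endothelial markers 2 were lower and 1 higher (171 to 241 CPM in Acss2-KO and 180 to 249 CPM in WT). Of 4 tested stellate markers 1 was lower (5 listed, 217 to 307 CPM in Acss2-KO and 238 to 358 CPM in WT). Of the cholangiocyte markers, Sox9 was higher and Spp1 lower, together 14.0 to 17.3 CPM in Acss2-KO and 32.2 to 37.2 CPM in WT, and Krt19, Krt7 and Epcam are not among the listed genes. Listed neutrophil, lymphocyte and adipocyte markers summed to at most 2.03, 4.43 and 4.69 CPM in Acss2-KO and at most 1.97, 18.4 and 3.27 CPM in WT. Of these the leukocyte gene Ptprc was tested and called lower, at 2.79, 2.81 and 3.43 CPM in Acss2-KO and 6.1, 16.3 and 8.63 CPM in WT. It passed the filter only through WT, and could not be tested without replicate 2 of WT. Adgre1 and the stellate marker Lrat also passed only through WT (means of 4.04 and 4.64 CPM in Acss2-KO). Sox9 passed only through Acss2-KO (mean of 3.22 CPM in WT). The kidney markers Umod and Slc34a1 are not among the listed genes. The 3 pancreatic enzyme markers summed to 317.6 CPM at most in Acss2-KO (replicate 1), against 4.94 CPM at least. In WT they summed to 1247 CPM at most (replicate 2) and 6.76 CPM at least. Replicate 3 of each genotype lay between: Cpb1 was at 134, 2.07 and 60.1 CPM in Acss2-KO and 2.91, 630 and 72.5 CPM in WT. Results are also given with Acss2-KO replicate 1 and WT replicate 2 left out, which keeps replicate 3 of each genotype. The 2 left-out libraries are called high in pancreatic markers below. Replicate 1 of Acss2-KO stood apart further, in genes picked after their values were seen: 20 genes reached 20 CPM there and at least 10 times their level in each other library, against 0 to 6 genes in the others. Among them were skeletal muscle genes (Acta1 at 199, 1 and 3.63 CPM in Acss2-KO replicates 1 to 3 and at most 2.62 CPM in WT; Myh1 at 115, Ttn at 88.0 and Ckm at 41.9 CPM in that library) and the squamous epithelium keratins Krt4 (63.1 CPM) and Krt13 (62.2 CPM). The part of these cells and tissues in the results below was not tested, and in bulk liver fewer cells of a type and less RNA per cell cannot be told apart.

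Of the 9 genes, 4 fell in Acss2-KO liver, none rose and 5 did not pass the test (limma, adjusted p under 0.05 over 9355 tested genes). Pantetheinase Vnn1 had the largest change, and Pank2, Coasy and Pank3 were the others that fell. Log2 fold changes ran from -1.85 to -0.13, so all 9 were negative, with a median of -0.47 against -0.12 over all tested genes. Pank4 turned positive with quantile scaling, and is at 0.02 in the authors' deposited table. Relative to that shift of all genes, the log2 fold change was -1.73 for Vnn1, -0.89 for Pank2, -0.66 for Coasy and -0.43 for Pank3. The share called lower was 44.4% of the 9 genes, and 23.1% of all tested genes were called lower, 13.4% higher and 36.5% in either direction. The Acss2-KO libraries all lay below the WT libraries for 6 of the 9 genes (66.7%), and for 32.8% of all tested genes. Groups that did not overlap in either direction made up 52.9%. With so few genes these shares describe the list and single nothing out. Coasy and Pank3 lost their calls under other scalings, which left 2 genes called, Vnn1 and Pank2. Under those scalings 1624 to 1806 of all tested genes were called lower, against 2161 on CPM. In the authors' deposited table the same 2 genes are past 0.05, Vnn1 with an adjusted p of 8e-05 and Pank2 with 0.048, and 27.2% of the listed genes are past it, 14.7% with a negative fold change.

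**Figure D1:**
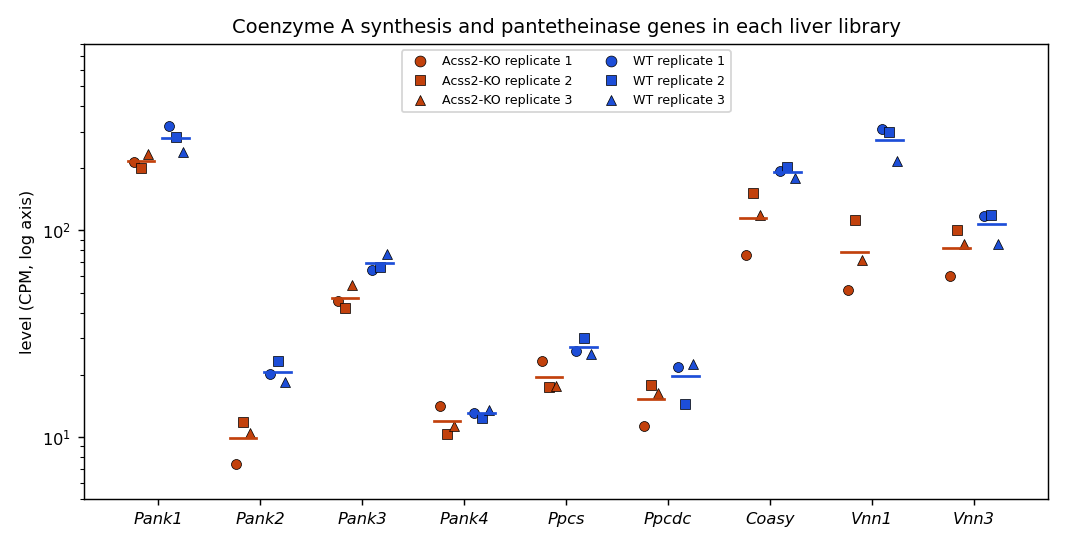
Level of each gene in CPM (log axis) in each of the 6 libraries, Acss2-KO in dark orange and WT in blue, with the replicate number by symbol and the group mean as a line. The groups do not overlap for Pank1, Pank2, Pank3, Ppcs, Coasy and Vnn1, and the widest gap is that of Vnn1, at 51.6 to 112 CPM in Acss2-KO and 217 to 311 CPM in WT.

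Pank1, the main pantothenate kinase gene of mouse liver (ENSMUSG00000033610, chromosome 19, 34810894 to 34879455), had levels of 214, 199 and 236 CPM in replicates 1 to 3 of Acss2-KO, against 322, 282 and 239 CPM in replicates 1 to 3 of WT. The groups were separated by a narrow margin, between 236 CPM in Acss2-KO replicate 3 and 239 CPM in WT replicate 3. The log2 fold change was -0.37 (SE 0.19, 95% interval -0.81 to 0.07) and did not pass the test (limma adjusted p = 0.162). The interval reaches a level 1.75-fold lower in Acss2-KO.

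Pank2, whose human counterpart works in mitochondria and is mutated in a neurodegeneration with brain iron accumulation (ENSMUSG00000037514, chromosome 2, 131262495 to 131299188), fell in Acss2-KO. Its values were 7.36, 11.8 and 10.4 CPM in Acss2-KO and 20.3, 23.3 and 18.4 CPM in WT. Every Acss2-KO library was below every WT library, and the level was 2.02-fold lower (log2 fold change -1.01, SE 0.20, limma adjusted p = 0.00624). The call was kept in all 17 alternatives that could test the gene, with adjusted p between 0.00284 and 0.0364. Rnf24, which overlaps its end, went the other way, at 14.3, 14.3 and 18.5 CPM in Acss2-KO and 11.2, 10.3 and 7.52 CPM in WT (log2 fold change 0.65, SE 0.20, adjusted p = 0.0306). Its adjusted p exceeded the threshold when replicate 3 of Acss2-KO (0.13), or replicate 2 (0.0609) or 3 (0.0697) of WT, was left out.

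Pank3, a cytosolic kinase held in check by acetyl-CoA (ENSMUSG00000018846, chromosome 11, 35769484 to 35791285), was at 45.3, 42.2 and 54.2 CPM in Acss2-KO and at 64.4, 66.3 and 77.2 CPM in WT. The groups did not overlap, and the gene fell 1.46-fold (log2 fold change -0.55, SE 0.17, limma adjusted p = 0.0346). The call was lost whichever 1 library was left out, while the log2 fold change stayed between -0.65 and -0.47. The limma adjusted p was 0.0833, 0.0732 and 0.0588 without Acss2-KO replicate 1, 2 or 3. It was 0.0748, 0.0854 and 0.0629 without WT replicate 1, 2 or 3. The fall also missed the threshold under the 4 other scalings (adjusted p 0.0598 to 0.0685).

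Pank4, which resembles the kinases but carries a phosphatase domain and is not held to phosphorylate pantothenate (ENSMUSG00000029056, chromosome 4, 154964123 to 154980938), was at 14.0, 10.3 and 11.3 CPM in Acss2-KO and at 13.0, 12.4 and 13.5 CPM in WT. The groups overlapped, with the highest and the lowest value both in Acss2-KO. The log2 fold change was -0.13 (SE 0.17, 95% interval -0.51 to 0.26, limma adjusted p = 0.584), and it turned to 0.04 with quantile scaling. In the authors' deposited table it is 0.02.

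Per kilobase of the longest annotated transcript, Pank1 made up most of the summed level of the 4 kinase-family genes in both genotypes. Its share of that sum was 82.6%, 82.4% and 83.0% in the Acss2-KO libraries and 83.6%, 81.1% and 77.7% in the WT libraries. The share of Pank2 was 2.31%, 3.95% and 2.97% in the Acss2-KO libraries and 4.27%, 5.42% and 4.85% in the WT libraries. The ranges of the Pank1 share overlapped between genotypes and those of the Pank2 share did not. The summed level was 74.8, 70.0 and 82.1 CPM per kb in Acss2-KO and 111, 101 and 88.8 CPM per kb in WT, with each Acss2-KO library below each WT library. The summed level was read on the CPM scale only, where all tested genes had a median log2 fold change of -0.12. These shares and sums were not tested.

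Ppcs, the synthetase that joins cysteine to phosphopantothenate (ENSMUSG00000028636, chromosome 4, 119418530 to 119422420), was at 23.3, 17.5 and 17.6 CPM in Acss2-KO and at 26.2, 30.1 and 25.1 CPM in WT. The groups did not overlap, but the log2 fold change of -0.47 (SE 0.17) did not pass the test (limma adjusted p = 0.0645). It passed without Acss2-KO replicate 1, the highest of its group (log2 fold change -0.59, adjusted p = 0.0399).

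Ppcdc, the decarboxylase of the following step (ENSMUSG00000063849, chromosome 9, 57412668 to 57440114), was at 11.3, 17.9 and 16.3 CPM in Acss2-KO and at 21.9, 14.4 and 22.6 CPM in WT. WT replicate 2 lay within the Acss2-KO range. The log2 fold change was -0.35 (SE 0.23, 95% interval -0.88 to 0.18, limma adjusted p = 0.263).

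Coasy, the bifunctional enzyme of the last steps (ENSMUSG00000001755, chromosome 11, 101082565 to 101086619), fell 1.72-fold in Acss2-KO. Its values were 76.1, 151 and 119 CPM in Acss2-KO and 194, 202 and 179 CPM in WT. The Acss2-KO values spread widely (coefficient of variation 32.6%), with replicate 1 lowest, and the WT values lay close together (6.29%). The log2 fold change was -0.78 (SE 0.25, limma adjusted p = 0.0391). Without Acss2-KO replicate 1 it was -0.51 and missed the threshold (adjusted p = 0.0948). It likewise missed the threshold when replicate 3 of Acss2-KO (0.0937) or replicate 1 (0.0960), 2 (0.101) or 3 (0.0788) of WT was left out, and with each other scaling (0.0615 to 0.0728).

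**Figure D2:**
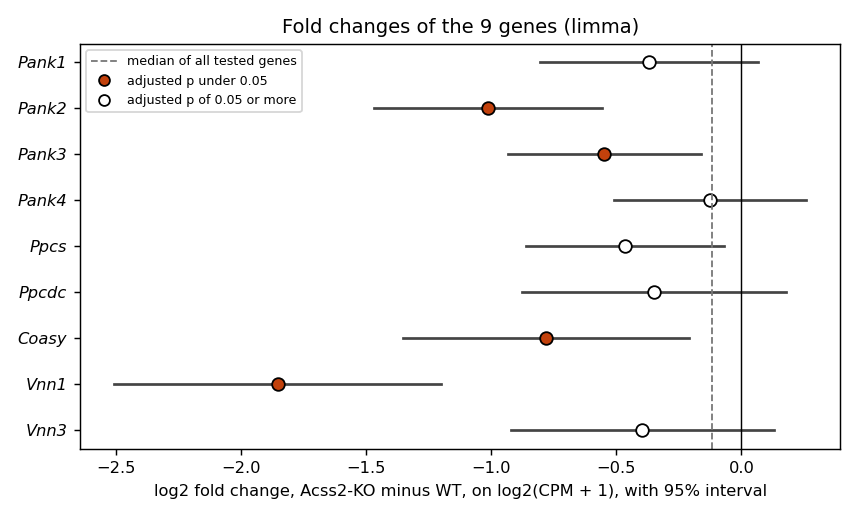
Log2 fold change of each gene, Acss2-KO minus WT, on log2(CPM + 1), with its 95% interval from limma; filled points have an adjusted p under 0.05 and the dashed line is the median of all 9355 tested genes (-0.12). All 9 points lie below 0 on this scale (Pank4 does not with quantile scaling), and the interval of Vnn1 (-2.50 to -1.20) is the one farthest from it.

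Vnn1, the pantetheinase anchored on the cell surface and a known target of the fasting receptor PPARα in liver (ENSMUSG00000037440, chromosome 10, 23894688 to 23905343), fell 3.61-fold. Its values were 51.6, 112 and 71.5 CPM in Acss2-KO and 311, 298 and 217 CPM in WT. The highest Acss2-KO library stayed well below the lowest WT library. The log2 fold change was -1.85 (SE 0.29, 95% interval -2.50 to -1.20, limma adjusted p = 0.00254), and 2.86% of the tested genes had a lower one. The call was kept in all 18 alternatives, with log2 fold changes between -2.14 and -1.52 and adjusted p between 0.000392 and 0.0152.

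Vnn3, its paralog (ENSMUSG00000020010, chromosome 10, 23851462 to 23869843), was at 60.1, 100.4 and 85.6 CPM in Acss2-KO and at 117, 119 and 85.6 CPM in WT. Acss2-KO replicate 2 and 3 reached the range of WT. The log2 fold change was -0.40 (SE 0.23, 95% interval -0.92 to 0.13) and did not pass the test (limma adjusted p = 0.208).

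Whether the 2 pantetheinase genes changed by unequal amounts was examined as a ratio within each library. Vnn1 over Vnn3 was 0.859, 1.12 and 0.835 in the Acss2-KO libraries and 2.66, 2.51 and 2.53 in the WT libraries. Mean log2 ratios were -0.10 ± 0.23 in Acss2-KO and 1.35 ± 0.04 in WT (SD, n = 3 each), a difference of -1.46. The ratio was lower in 3 of 3 Acss2-KO libraries, and the two-sided exact permutation test gave p = 0.1, the smallest that 3 against 3 libraries allow, so the design cannot pass 0.05 in this test. The difference stayed between -1.59 and -1.38 in the alternatives.

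**Figure D3:**
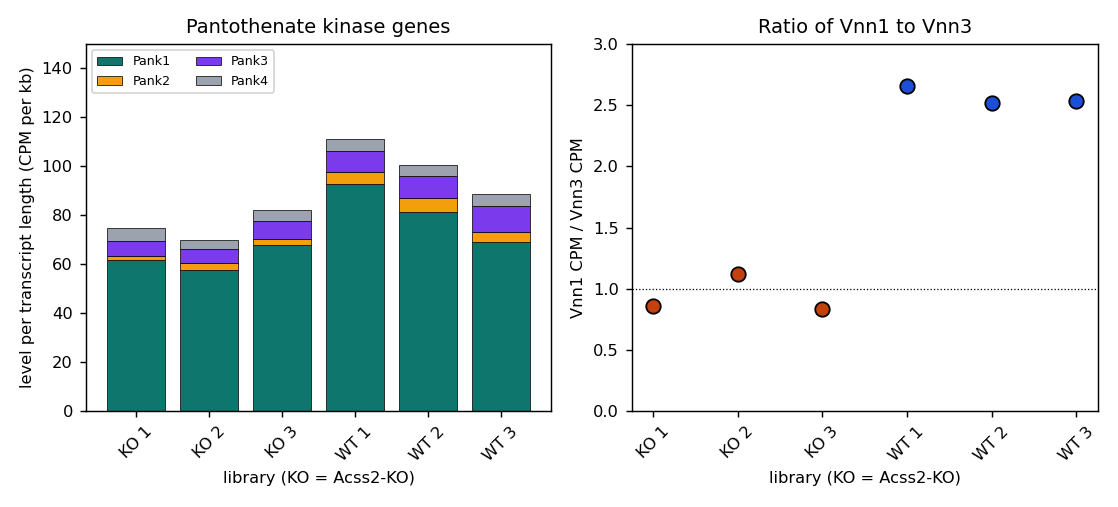
Left, the level of Pank1 to Pank4 per kilobase of transcript (CPM per kb, stacked) in each library; right, the ratio of Vnn1 to Vnn3 CPM in each library, with the dotted line at 1. The summed kinase level is 70.0 to 82.1 CPM per kb in Acss2-KO and 88.8 to 111 in WT, and the Vnn1 to Vnn3 ratio is 0.835 to 1.12 in Acss2-KO and 2.51 to 2.66 in WT.

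Vnn3 and Vnn1 lie 24845 bases apart on chromosome 10. None of the 4 tested genes among their listed neighbours fell, but Moxd1, listed at 0 in WT, could not fall. Stx7, a membrane fusion gene 244 kb beyond Vnn1, had a log2 fold change of 0.07 (limma adjusted p = 0.785), and the ribosomal protein gene Rps12, 64.3 kb before Vnn3, one of 0.52 (adjusted p = 0.138). The matrix gene Ctgf, 690 kb away, rose (log2 fold change 1.42, adjusted p = 0.00144). Moxd1, 318 kb away, was at 6.41, 21.6 and 7.73 CPM in Acss2-KO and listed at 0 in the 3 WT libraries. It was called higher (log2 fold change 2.50, adjusted p = 0.00237). It passed the filter only through Acss2-KO, and could not be tested without Acss2-KO replicate 2. Slc18b1, 23.5 kb before Vnn3, was below the filter, at 3.97, 6.87 and 4.17 CPM in Acss2-KO and 4.23, 3.76 and 3.76 CPM in WT. The same holds for Tcf21, 1031 kb away (1.89, 1.37 and 1.15 CPM in Acss2-KO and 3.27, 3.12 and 4.03 CPM in WT).

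Levels of different genes were compared per kilobase of the longest annotated transcript, since longer transcripts give more reads. In Acss2-KO the order was Pank1 (62.5 ± 5.25 CPM per kb, SD, n = 3), Coasy (48.3 ± 15.8), Vnn3 (45.3 ± 11.3), Vnn1 (32.5 ± 12.8), Ppcs (13.5 ± 2.28), Pank3 (6.40 ± 0.844), Ppcdc (5.52 ± 1.25), Pank4 (4.39 ± 0.706) and Pank2 (2.31 ± 0.532). In WT the order was Vnn1 (114 ± 21.1 CPM per kb, SD, n = 3), Pank1 (81.2 ± 12.0), Coasy (80.3 ± 5.05), Vnn3 (59.1 ± 10.3), Ppcs (18.8 ± 1.81), Pank3 (9.39 ± 0.933), Ppcdc (7.15 ± 1.65), Pank2 (4.84 ± 0.578) and Pank4 (4.79 ± 0.216). Neighbours whose libraries overlapped in Acss2-KO were Pank1 with Coasy, Coasy with Vnn3, Vnn3 with Vnn1, Pank3 with Ppcdc, and Ppcdc with Pank4. In WT they were Vnn1 with Pank1, Pank1 with Coasy, Ppcdc with Pank2, and Pank2 with Pank4. Vnn1 thus came below Pank1, Coasy and Vnn3 in Acss2-KO and above them in WT, while Pank1 and Coasy stayed next to each other in both. Which transcript of a gene was used is not known, and the lengths shift this order accordingly.

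The 9 genes did not vary together among the Acss2-KO libraries. Vnn1, Vnn3, Coasy, Pank2 and Ppcdc (5 genes) were each lowest in replicate 1 and highest in replicate 2, an order that 27.5% of all tested genes showed. Pank1 and Pank3 were highest in replicate 3, Ppcs and Pank4 in replicate 1, and these 4 were lowest in replicate 2. Acss2-KO replicate 1 is also the library with the skeletal muscle and keratin genes and the highest pancreatic marker level within Acss2-KO, whose part was not tested. With it and WT replicate 2 both left out, Vnn1 was still lower (log2 fold change -1.52, limma adjusted p = 0.0005) and so was Pank2 (-0.75, adjusted p = 0.0364), while Coasy (adjusted p = 0.268) and Pank3 (0.159) did not pass.

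**Figure D4:**
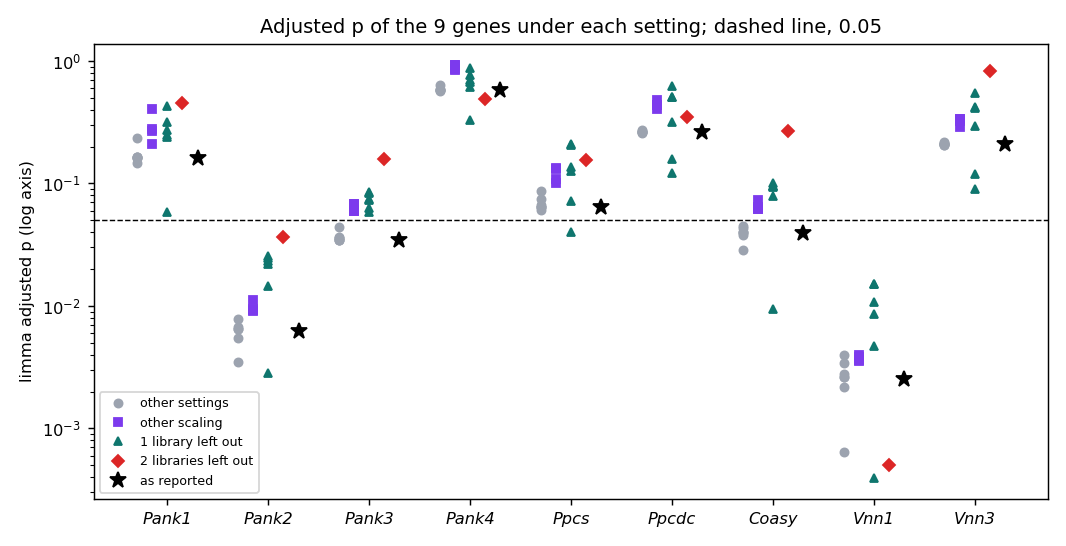
Limma adjusted p (log axis) of each gene as reported (star) and under the alternatives, grouped as other scalings, 1 library left out, 2 libraries left out and other settings; the dashed line is 0.05. All points of Vnn1 and Pank2 lie below the line, those of Pank3 and Coasy fall on both sides of it, and Ppcs crosses it once.

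The gene patterns closest to that of Vnn1 over the 6 libraries, by Pearson correlation of log2(CPM + 1) among tested genes outside the list, were those of Gopc, a Golgi scaffold gene (r = 0.9998), Fam192a (r = 0.9995) and Prdx6, a peroxiredoxin that reduces phospholipid peroxides (r = 0.9995). Prdx6 was at 272, 434 and 340.1 CPM in Acss2-KO and 771, 744 and 617 CPM in WT, and Gopc at 7.26, 13.7 and 9.38 CPM in Acss2-KO and 28.6, 28.1 and 22.2 CPM in WT. All 3 share with Vnn1 the gap between the genotypes and the order of the libraries in each, on which r over 6 points rests, and they were picked from 9355 genes.

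Transport, breakdown and use of coenzyme A were examined on 5 further lists with 26 genes, 25 of them tested. Of these 6 fell and 1 rose (28% called, against 36.5% of all tested genes), with a median log2 fold change of -0.19. Called lower were 1 of 4 genes for transport, 3 of 5 for hydrolysis and 2 of 7 for carriers and mitochondrial fatty acid synthesis. It was 0 of 7 for cysteine, cysteamine and taurine and 0 of 2 related proteins. Of all tested genes 23.1% were called lower. Differences between these short lists were not tested.

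Among 4 transport genes, Slc25a17, which carries coenzyme A and related nucleotides into peroxisomes, fell (16.1, 23.9 and 23.4 CPM in Acss2-KO and 41.4, 43.4 and 38.9 CPM in WT, log2 fold change -0.95, SE 0.19, limma adjusted p = 0.00611). Slc25a42, the mitochondrial coenzyme A carrier, was at 300.2, 172 and 241 CPM in Acss2-KO and 197, 141 and 108 CPM in WT, with overlapping groups (log2 fold change 0.68, adjusted p = 0.0852). The pantothenate transporter gene Slc5a6 (log2 fold change -0.26, adjusted p = 0.411) and Slc25a16 (-0.03, adjusted p = 0.888) did not pass.

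Of 5 hydrolysis genes 3 fell. Nudt7, the peroxisomal coenzyme A diphosphatase, was at 119, 81.6 and 56.1 CPM in Acss2-KO and 244, 185 and 190.0 CPM in WT (log2 fold change -1.31, SE 0.27, limma adjusted p = 0.00754). Enpp3, an ectonucleotidase of the cell surface, fell as well (-0.96, adjusted p = 0.0146), a call lost when replicate 3 of Acss2-KO (0.0555) or replicate 1 of WT (0.0503) was left out, and without both libraries high in pancreatic markers (0.0757). Nudt8, a mitochondrial coenzyme A diphosphatase, fell by 0.66 on the log2 scale (adjusted p = 0.0291), and missed the threshold under the 4 other scalings (0.0620 to 0.0983) and without replicate 1 (0.0721) or 3 (0.0748) of Acss2-KO, or replicate 1 (0.0617) or 3 (0.0527) of WT. Nudt19, the main peroxisomal coenzyme A hydrolase of mouse kidney, was at 44.3, 35.8 and 40.8 CPM in Acss2-KO and 43.4, 41.1 and 40.2 CPM in WT (-0.05, adjusted p = 0.828), and Enpp1 had a log2 fold change of -0.36 (adjusted p = 0.159).

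Of 7 tested genes for phosphopantetheine transfer, its carriers and mitochondrial fatty acid synthesis, 2 fell and 1 rose. Oxsm, the condensing enzyme of mitochondrial fatty acid synthesis (-1.25, SE 0.26, limma adjusted p = 0.00724), and Aasdh, a protein with a phosphopantetheine-binding domain (-0.92, adjusted p = 0.00837), fell. Fasn, the cytosolic fatty acid synthase, which bears a phosphopantetheine arm, rose (290.0, 181 and 195 CPM in Acss2-KO and 117, 159 and 108 CPM in WT, 0.78, adjusted p = 0.0338), a call lost without replicate 1 (0.0915) or 3 (0.0756) of Acss2-KO, without replicate 1 (0.103) or 3 (0.0973) of WT, and without both libraries high in pancreatic markers (0.0671). Aasdhppt, the transferase that attaches the arm (-0.31, adjusted p = 0.194), the mitochondrial acyl carrier gene Ndufab1 (-0.57, adjusted p = 0.0627), the malonyl transferase gene Mcat (-0.38, adjusted p = 0.0675) and Aldh1l1 (0.10, adjusted p = 0.784) did not pass. Aldh1l2 is not among the listed genes.

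None of 7 genes of cysteine, cysteamine and taurine metabolism or transport passed the test by limma, and none had an unadjusted p under 0.05. Fmo1, a flavin monooxygenase that can oxidise hypotaurine to taurine, had the largest fold change of the list, with 75.1, 284 and 205 CPM in Acss2-KO and 362, 372 and 271 CPM in WT (log2 fold change -1.01, SE 0.45, 95% interval -2.06 to 0.03, adjusted p = 0.114). Its groups overlapped, and replicate 1 of Acss2-KO was the lowest. Cdo1, the cysteine dioxygenase, was at 1873 ± 182 CPM in Acss2-KO and 1767 ± 579 CPM in WT (SD, n = 3 each). Ado, the cysteamine dioxygenase, which acts on the other product of the pantetheinases, was at 13.0 ± 1.63 CPM in Acss2-KO and 15.1 ± 2.63 CPM in WT (log2 fold change -0.19, 95% interval -0.61 to 0.23). Of 2 related proteins, Btd, the biotinidase from the family of the pantetheinases (0.53, adjusted p = 0.0628), and Dcakd, which resembles the last kinase domain of Coasy (0.56, adjusted p = 0.0563), did not pass, although neither had overlapping groups.

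**Figure D5:**
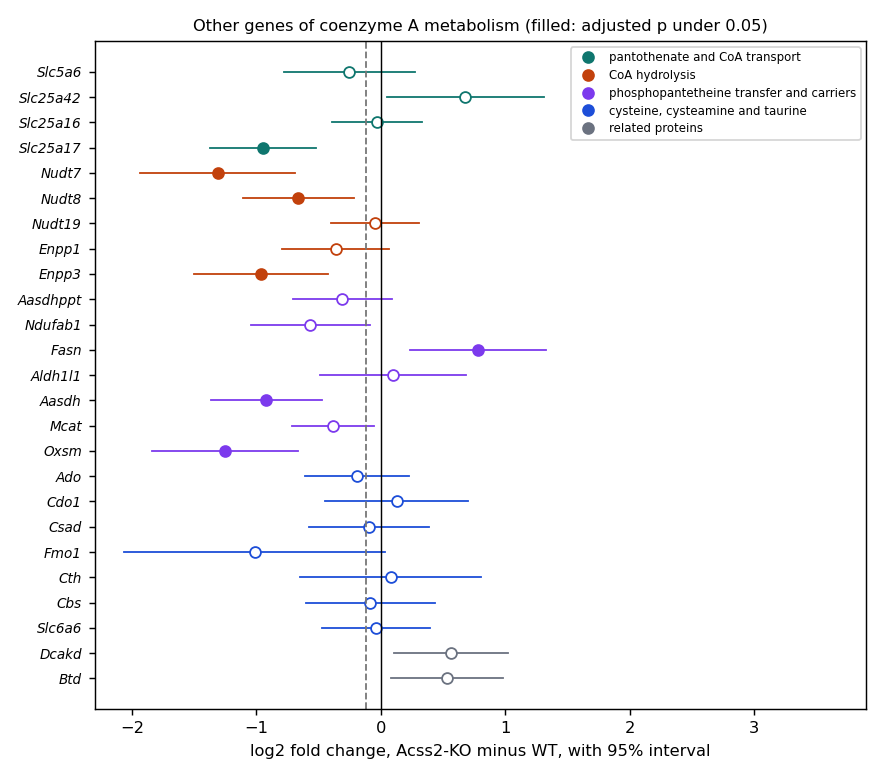
Log2 fold change, Acss2-KO minus WT, with its 95% interval for the 25 tested genes of the 5 further lists, coloured by list; filled points have a limma adjusted p under 0.05 and the dashed line is the median of all tested genes. The 6 filled points on the left are Slc25a17, Nudt7, Nudt8, Enpp3, Aasdh and Oxsm, and the one on the right is Fasn.

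Vnn1 was also set beside 24 known PPARα targets. Of these 7 rose, 4 fell and 13 did not pass (45.8% called, against 36.5% of all tested genes), with a median log2 fold change of 0.10. The 2 with the smallest p in each direction were Cyp4a31, an omega-hydroxylase gene (2.13, limma adjusted p = 0.00128), and Pdk4, a kinase of pyruvate dehydrogenase (4.87, adjusted p = 0.00428), which rose, and Fabp1, the liver fatty acid binding protein (-2.63, adjusted p = 0.00107), and the thioesterase gene Acot3 (-2.09, adjusted p = 0.00223), which fell. Without both libraries high in pancreatic markers, Pdk4 had a log2 fold change of 4.15 and missed the threshold (adjusted p = 0.133), and without either of them alone it passed (0.0202 and 0.0173). The number of targets called was 6, against 11, without replicate 3 of Acss2-KO, without replicate 2 of WT, and without that pair of libraries.

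Promoter windows of RefSeq (GRCm38.p6, from 250 bases before to 50 bases after an annotated start) were taken from a table that is not complete. It held 10 windows for 7 of the 9 genes, and the promoters of Coasy and Vnn1 were not analysed here. The paired element of PPARα, written as AGGTCA repeated in the same direction with 1 base of any kind between, was sought on both strands and found in none of the 10 windows, and in 0.0396% of 32851 windows of the same length. The single half-site AGGTCA, which the paired element also holds, was found in 2 of the 10 and in 16.3% of all. The 2 windows are shown with the half-site in capitals, each 5′ to 3′ on the strand of its gene; both genes, Ppcs and Ppcdc, are ones that did not pass the test.
Ppcs (chr4:119422371-119422670, minus strand): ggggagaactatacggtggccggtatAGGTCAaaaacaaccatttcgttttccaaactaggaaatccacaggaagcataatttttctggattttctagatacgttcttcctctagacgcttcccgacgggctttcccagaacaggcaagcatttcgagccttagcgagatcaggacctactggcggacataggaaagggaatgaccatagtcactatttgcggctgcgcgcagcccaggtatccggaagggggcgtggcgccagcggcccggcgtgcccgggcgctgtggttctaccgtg
Ppcdc (chr9:57439687-57439986, minus strand): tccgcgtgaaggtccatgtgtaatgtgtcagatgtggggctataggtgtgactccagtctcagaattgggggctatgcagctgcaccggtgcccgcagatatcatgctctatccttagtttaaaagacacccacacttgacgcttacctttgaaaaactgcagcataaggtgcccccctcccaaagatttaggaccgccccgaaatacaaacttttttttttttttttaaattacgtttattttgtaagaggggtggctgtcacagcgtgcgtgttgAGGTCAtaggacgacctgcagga
A match is a string of letters and was not measured as binding.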

How the data were processed

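Liver RNA libraries (Illumina TruSeq, per the labels' protocols), 3 of Acss2-KO and 3 of WT mice, were analysed from the table the authors deposited. Its per-library values are log2 CPM with 2 decimals, as the deposited values show: once taken off the log scale, each library totals between 997061 and 997856, and lower levels are listed at 0 (1 CPM here). The deposited log2 fold changes and p-values of the authors were used only where named, and the deposited score columns were not used. Per the submitters' processing notes Bowtie 0.12.2 and mm8 were used, with no role given. No source used here gives aligner settings, annotation or counting. The coordinates follow GRCm38: starts lie a median of 8 bases from RefSeq's for 11625 genes.

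Depth was estimated from the steps between low values. The test was limma 3.58.1 (R 4.3.3, robust trend) on log2(CPM + 1) for genes averaging 5 CPM or more, without covariates, with Benjamini-Hochberg adjustment over all 9355 and a threshold of 0.05. Fold changes on this scale understate low genes. The fit was tested on simulated data, and repeated with other pseudocounts, scalings (the trimmed mean computed directly on CPM), filters, left-out libraries and the replicate block. Transcript lengths and coding sequences are of GENCODE vM1, by Ensembl identifier. The members, lists and alternatives were chosen with earlier results of these data known. Genes named beyond the 9 are Acss2, the neighbours of the Vnn genes, the 3 genes most like Vnn1, all genes of the transport, hydrolysis and carrier lists, and up to 2 called genes in each direction of other lists. Rnf24, Fmo1, Cdo1, Ado, Btd, Dcakd, the muscle and keratin genes and the cell markers were named after their values were seen or as checks.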

Additional observations from a re-analysis of the deposited data

How the results depend on the processing

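All 9 genes kept a negative log2 fold change in each alternative, except Pank4 with quantile scaling (0.040). Scalings that remove the median shift of -0.12 gave Pank3 values of -0.44 by median of ratios, -0.47 by upper quartile, -0.43 by trimmed mean and -0.46 by quantiles, and Coasy values of -0.67, -0.70, -0.67 and -0.64 in the same order, none past the threshold, so that 2 of the 9 genes were called under each. Of all tested genes, 1764 of 9350, 1806 of 9351, 1744 of 9350 and 1624 of 9355 were called lower in that order. On CPM, 4 of the 9 genes and 2161 of 9355 tested genes were. These scalings also moved the share of lower calls among all calls to 51.1%, 52.7%, 50.6% and 47.6%, against 63.3% on CPM. With the 2 libraries high in pancreatic markers left out the values were -0.55 for Pank3 and -0.47 for Coasy, neither past the threshold. Then 2 of the 9 genes and 6 PPARα targets were called, and of 9302 tested genes 715 were higher and 1319 lower. With a minimum of 20 CPM, 741 genes were higher and 1112 lower, among fewer genes tested, and Pank2, Pank4 and Ppcdc could not be tested.

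With 1 library left out at a time, log2 fold changes were -0.65 to -0.47 for Pank3, -1.002 to -0.51 for Coasy and -0.59 to -0.39 for Ppcs. Of the 9 genes 2 to 3 were called, 4 to 10 of the coenzyme A lists (4 when replicate 3 of Acss2-KO or replicate 1 of WT was left out) and 6 to 14 PPARα targets. Over all 9282 to 9425 tested genes, 519 to 1608 were higher and 1239 to 2420 lower, with the lowest counts without Acss2-KO replicate 3. The cause of these changes was not tested.

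Same-numbered libraries correlated in their deviations from the group means at -0.10, -0.14 and 0.09, so no pairing by replicate number was seen. With 3 libraries per genotype these values cannot decide whether libraries shared a batch. With the replicate block the log2 fold change of Vnn1 was unchanged at -1.85, 4 of the 9 genes were called, and 1260 genes were higher and 2137 lower.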
